A study of Mus musculus with 4 samples.

Results

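The genes described here encode the proteins that bind and sense bacterial lipopolysaccharide, together with the Toll-like receptors. The 9 members were Lbp, Cd14, Ly96, Tlr2, Tlr3, Tlr4, Tlr5, Tlr7 and Tlr9. All probe sets (groups of short probes against the same transcript) that the platform annotation gave exactly 1 gene symbol equal to a member were taken. These were 16 of the 45101 probe sets of the array, 9 of its 18194 named genes. There were 4 probe sets for Tlr4, 3 for Tlr7, 2 each for Lbp and Tlr3, and 1 for each of the other 5 genes.

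Lipopolysaccharide, a cell wall component of Gram-negative bacteria, reaches the liver from the gut through the portal vein. LPS-binding protein, encoded by Lbp and secreted into plasma by hepatocytes, extracts single lipopolysaccharide molecules and hands them to CD14 on the cell surface. CD14 passes them to the product of Ly96, a small secreted protein that sits on TLR4 and forms the actual binding pocket, and the paired complex signals through the adaptors MyD88 and TRIF. The other receptors recognise bacterial lipoproteins (TLR2), double-stranded RNA (TLR3), flagellin (TLR5), single-stranded RNA (TLR7) and unmethylated DNA (TLR9). Kupffer cells, which are macrophages resident in liver sinusoids, are known as a major site of lipopolysaccharide sensing.

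Expression was measured in whole liver of male C57BL/6J mice that were 8 to 12 weeks old when they were placed on a low-fat diet (10% of energy as fat) or a high-fat diet (45%) for 20 weeks, with palm oil in place of lard. In the final week they received 2 injections into the peritoneal cavity, either of liposomes loaded with clodronate, which kill phagocytes that swallow them, or of phosphate-buffered saline (PBS). RNA of 8 mice per low-fat group and 10 mice per high-fat group was combined in equal amounts, and each of the 4 groups (low-fat PBS, low-fat clodronate, high-fat PBS, high-fat clodronate) was a single array of such a pool. The study asked how Kupffer cells act on fat storage in the liver. Controls received PBS and not empty liposomes, so what the liposomes, the drug and the loss of macrophages each did cannot be told apart. The spread between mice was not measured, and the number of arrays limits the precision. Values are log2 expression, and a value below 4 was taken as not measurable, and values on that side of 4 have no order. In whole liver, fewer cells of a type and less RNA per cell cannot be told apart.

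Most marker transcripts of macrophages were lower with clodronate. Of 14 Kupffer cell and macrophage markers, 14 were at 4 or more with PBS on the low-fat diet and 3 with clodronate, against 12 and 4 on the high-fat diet. Their summed linear level was 6844 and 266 on the low-fat diet and 6293 and 348 on the high-fat diet. The clodronate sums include markers below 4, which are not measured levels, so no size was read from them. With values below 4 set to 4, 12 of the 14 fell with clodronate (limma with Benjamini-Hochberg adjustment and a prior variance that depends on a gene's mean level). Over all genes 0.624% rose or fell in that fit. Timd4 and Marco, at 4 or more only on the low-fat PBS array, did not pass. Markers below 4 on both clodronate arrays entered the fit through the PBS arrays, and their clodronate values were fixed at 4. On the deposited values, those below 4 included, 14 passed, and 10 with a prior that does not depend on the mean, called below without the mean-dependent prior. Over all genes 1.09% and 0.451% passed in these fits. Clec4f, a lectin receptor of Kupffer cells, was at 9.40 with PBS on the low-fat diet and 9.42 on the high-fat diet. With clodronate it was below 4 on both diets, lower by at least 42.3-fold and 42.9-fold. Markers of neutrophils were at 4 or more only on the low-fat clodronate array, where 2 of 5, S100a8 and S100a9, lay just above 4. On the other arrays all 5 were below 4 and thus not measurable, so their summed levels were not compared and no size was read. The 3 monocyte, 3 B cell and 4 dendritic cell markers with a probe set were below 4 on all 4 arrays. Of the markers at 4 or more on at least 1 array, 0 of 9 sinusoidal endothelial, 0 of 5 stellate and 0 of 8 hepatocyte genes passed limma for clodronate with or without the mean-dependent prior. For so few genes, 0 is near the shares over all genes and says little. At an unadjusted p under 0.05 there were 1, 0 and 1 of them with that prior and 3, 0 and 0 without it.

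Most of the sensing genes were dim in whole liver. Of the 16 probe sets, 2 were at 4 or more on all 4 arrays, 1 of Lbp and 1 of Ly96. Both Tlr3 probe sets lay at the limit, at 4 or more on 3 arrays and on 1 array. The remaining 12 were below 4 on every array, with values from 1.63 to 3.85. Cd14, Tlr2, Tlr4, Tlr5, Tlr7 and Tlr9 had no probe set that reached 4 on any array. This held with PBS as well as with clodronate, so a fall of these transcripts could not be measured on these arrays.

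**Figure D1:**
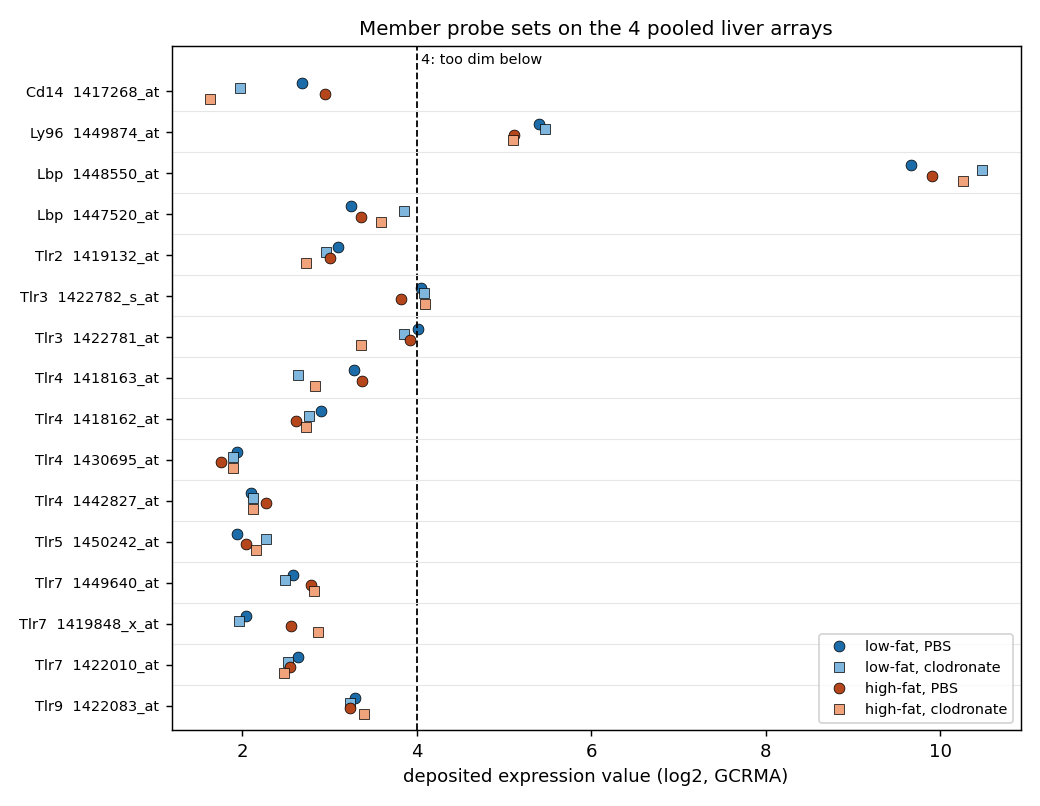
Deposited log2 expression (horizontal axis) of the 16 member probe sets on the 4 pooled arrays, each point a single array (circles PBS, squares clodronate; blue low-fat, red high-fat), with a dashed line at 4. The brighter Lbp probe set and that of Ly96 lie right of the line on all 4 arrays, Tlr3 straddles it, and the other 12 probe sets lie left of it.

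Lbp was higher with clodronate than with PBS on both diets. Its probe set 1448550_at was at 9.67 in the low-fat PBS pool, 10.48 in the low-fat clodronate pool, 9.91 in the high-fat PBS pool and 10.27 in the high-fat clodronate pool. Both clodronate arrays thus lay above both PBS arrays, an order whose share over all genes was not counted. The difference was 0.81 (log2; 1.76-fold) on the low-fat diet and 0.36 (1.28-fold) on the high-fat diet. On the low-fat diet 31 of the 8650 genes that reached 4 on at least 1 array (0.358%) had a difference as high or higher, and on the high-fat diet 222 genes (2.57%) did. Neither difference between 2 single arrays has a replicate check.

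Averaged over both diets, Lbp rose with clodronate by 0.59 ± 0.32 (SD of both diets' differences, n = 2; 95% interval from 0.34 to 0.83; limma, Benjamini-Hochberg adjusted p = 0.0391). The call depended on the settings. Of 8 alternatives, 7 left Lbp above the threshold, with limma adjusted p between 0.0817 and 0.772. Only centring of the arrays kept the call (limma adjusted p = 0.000152). In that fit the prior degrees of freedom were infinite (8.46 in the main fit), so the variance was treated as known. Its standard error was 0.121, against 0.110 in the main fit. Over all 8 the size stayed between 0.58 and 0.59. The second Lbp probe set, 1447520_at, was below 4 on all arrays, at 3.24, 3.85, 3.36 and 3.59 in the same order of pools. Values this dim have no order, so nothing about the bright probe set was read from them.

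The diets did not separate Lbp. With PBS it was higher on the high-fat diet by 0.24 (1.18-fold), and with clodronate it was lower by 0.21 (1.16-fold). The averaged diet difference was 0.01 ± 0.32 (SD of both injections' differences, n = 2; 95% interval from -0.23 to 0.26; limma, Benjamini-Hochberg adjusted p = 0.987).

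Ly96, whose product holds lipopolysaccharide on TLR4, was above 4 on all 4 arrays, those with few macrophage markers included. It was at 5.40 with PBS and 5.47 with clodronate on the low-fat diet, and at 5.11 with PBS and 5.10 with clodronate on the high-fat diet. The clodronate array was above the PBS array on the low-fat diet and just below it on the high-fat diet. The averaged clodronate difference was 0.03 ± 0.06 (SD, n = 2; 95% interval from -0.41 to 0.46; limma, Benjamini-Hochberg adjusted p = 1). The lower end of the interval, a fall of 0.41 (log2), holds for this fit alone and rests on no repeat array. It was -0.27 without the mean-dependent prior and -0.45 with each array centred on its median.

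By diet, both high-fat arrays of Ly96 were below both low-fat arrays, again an order whose share over all genes was not counted. The difference was -0.29 with PBS (1.22-fold lower) and -0.37 with clodronate (1.29-fold lower). Of all genes, 8.64% and 13.5% were as far or farther below in these comparisons. The averaged diet difference of -0.33 ± 0.06 (SD, n = 2; 95% interval from -0.76 to 0.10) did not pass (limma, Benjamini-Hochberg adjusted p = 0.531; adjusted p between 0.451 and 0.759 over the alternatives).

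The receptor Tlr4 itself and Cd14 were too dim to follow. Cd14, the surface protein that receives lipopolysaccharide from LPS-binding protein, was listed at 2.69 and 1.98 with PBS and clodronate on the low-fat diet, and at 2.95 and 1.63 on the high-fat diet. The brightest Tlr4 probe set, 1418163_at, was listed at 3.28 and 2.64, and at 3.37 and 2.83. All of these values lay below 4, where no order was read. When all 18194 genes were fitted without the filter, the clodronate differences of Cd14 (-1.01; limma, Benjamini-Hochberg adjusted p = 0.177) and Tlr4 (-0.59; limma, Benjamini-Hochberg adjusted p = 0.846) did not pass. In that fit 0 of 9 members passed for clodronate, against 0.352% of all genes, and 0 of 9 for diet, against 0.231%, with 3 (Cd14, Lbp and Tlr4) and 0 at an unadjusted p under 0.05 in limma. The other 3 Tlr4 probe sets spanned 0.17 to 0.28 across the arrays and none exceeded 2.90. Their clodronate and PBS values were not separated.

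Tlr3, the receptor for double-stranded RNA, lay at the limit of measurement. Probe set 1422782_s_at was at 4.04 and 4.08 with PBS and clodronate on the low-fat diet, and at 3.82 and 4.09 on the high-fat diet. Probe set 1422781_at was at 4.01 and 3.86, and at 3.92 and 3.36. On the high-fat diet both values of the second were too dim to be ordered. Fitted side by side on the deposited values, their averaged clodronate differences were 0.16 and -0.35, and both had a limma adjusted p of 1. No direction for Tlr3 was drawn from them.

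The remaining Toll-like receptors stayed below 4 throughout. Tlr2, which recognises lipoproteins, ranged from 2.73 to 3.10. Tlr5, the flagellin receptor, ranged from 1.94 to 2.27, and Tlr9, which recognises unmethylated DNA, from 3.23 to 3.40. The 3 probe sets of Tlr7, the receptor for single-stranded RNA, ranged from 2.49 to 2.82, from 1.96 to 2.87 and from 2.48 to 2.64. The widest of these, 1419848_x_at, has a suffix that marks probes shared with other sequences. It was listed at 2.04 and 1.96 on the low-fat diet and 2.56 and 2.87 on the high-fat diet, while 1422010_at was listed at 2.64, 2.52, 2.55 and 2.48.

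The 2-fold count was made for the 3 members with a value of 4 or more, Lbp, Ly96 and Tlr3. For Tlr3, whose highest value was 4.09, a 2-fold fall could not appear, because values below 4 were set to 4. The other 6 members had no measurable difference in either direction. For clodronate against PBS 0 of 3 differed 2-fold or more on the low-fat diet, where 0.925% of 8650 genes did, and 0 of 3 on the high-fat diet, where 0.902% did. For high-fat against low-fat diet the count was 0 of 3 with PBS, where 0.671% did, and 0 of 3 with clodronate, where 1.1% did. In the averaged fit 3 members could be tested, and 1 passed for clodronate (limma with Benjamini-Hochberg adjustment), against 1.09% of all genes. For diet 0 of 3 passed in limma, with 0 at an unadjusted p under 0.05, against 1.69% of all genes. Without the mean-dependent prior 0 of 3 passed for clodronate and 0 of 3 for diet in limma, with 1 each at an unadjusted p under 0.05, against 0.451% and 0.0% of all genes. With values below 4 set to 4 in limma, 0 of 3 passed for either, with 1 and 0 at an unadjusted p under 0.05, against 0.624% and 0.694% of all genes. The 3 tested members are those bright enough, and say nothing about the other 6. Each array enters 2 of the 4 comparisons, so these are not independent of each other.

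**Figure D2:**
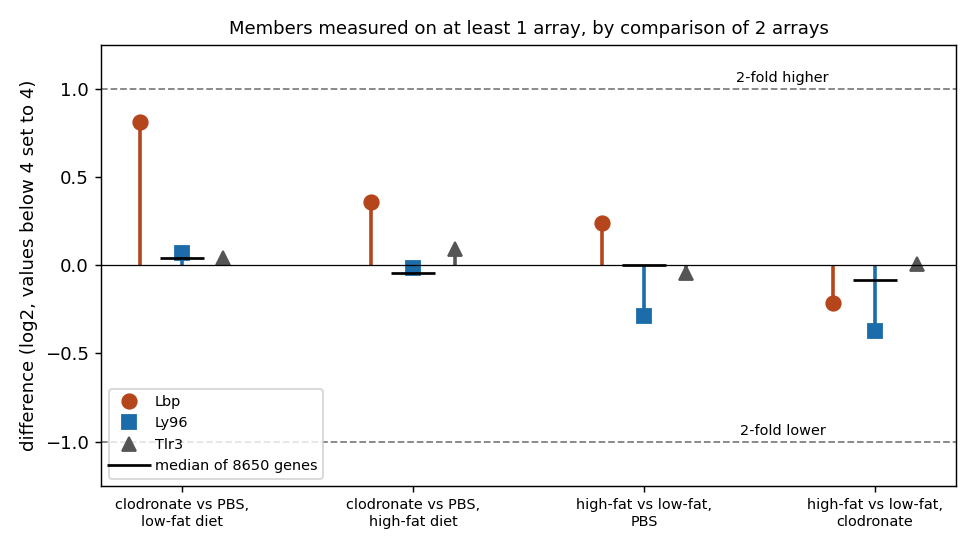
Difference (log2, values below 4 set to 4) of Lbp, Ly96 and Tlr3 (probe set 1422782_s_at) in each comparison of 2 arrays, with the median of the 8650 genes as a black bar and dashed lines at 2-fold. Lbp stands at 0.81 and 0.36 for clodronate, Ly96 at -0.29 and -0.37 for diet, and no point reaches a dashed line. The lower line is out of reach for Tlr3, whose values lie near 4.

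Lbp is an acute phase gene, a class that hepatocytes make in larger amounts during inflammation, and it was set beside 18 others. Of these, 16 were above 0 with clodronate on the low-fat diet and 14 on the high-fat diet, with medians of 0.18 and 0.06. Over all genes 59.7% and 36.4% were above 0, with medians of 0.04 and -0.05. Under quantile scaling 15 and 16 of the 18 were above 0, beside 4235 and 4408 of all 8650 genes. Under centring 16 and 11 of the 18 were, beside 5907 and 2366 of all genes. In the averaged fit 4 of the 18 rose and 0 fell (limma with Benjamini-Hochberg adjustment, against 0.116% of all genes that rose), and 0 passed without the mean-dependent prior, with 9 and 4 at an unadjusted p under 0.05. The 4 were Saa1, Orm1, Orm2 and Hp, of which Saa1 alone passed with values below 4 set to 4 before the fit. Lbp lay between them in size, above Hp (haptoglobin, 0.46 and 0.22 on the 2 diets) and Orm1 (orosomucoid, 0.30 and 0.28). On the high-fat diet Lbp, at 0.36, was below Saa1 (serum amyloid A1, 0.95) and Saa2 (0.62), and on the low-fat diet, at 0.81, beside Saa1 (0.81) and above Saa2 (0.15). Fibrinogen genes and Crp were near 0 on both diets, between -0.07 and 0.07.

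**Figure D3:**
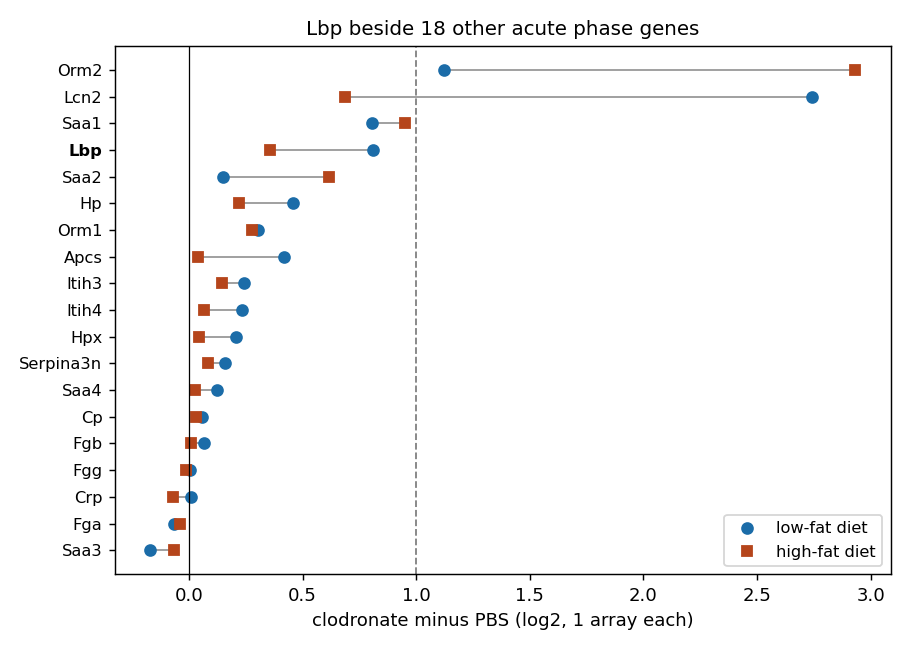
Clodronate minus PBS (log2, 1 array each) for Lbp (bold) and 18 other acute phase genes, ordered by the mean of the low-fat (circles) and high-fat (squares) values, with a dashed line at 2-fold. Lbp, at 0.81 and 0.36, is next below Orm2, Lcn2 and Saa1, whereas the fibrinogen genes Fga, Fgb and Fgg sit near 0.

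By diet, 11 of the 18 acute phase genes were above 0 with PBS (median 0.03) and 7 with clodronate (median -0.09), and 2 passed. Saa1 rose on the high-fat diet by 0.91 ± 0.10 (SD, n = 2; limma, Benjamini-Hochberg adjusted p = 0.000457) and Saa4 by 0.53 ± 0.07 (SD, n = 2; limma, Benjamini-Hochberg adjusted p = 0.00728), against 0.867% of all genes that rose and 0 of the 18 without the mean-dependent prior.

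The 4 values of no member spanned 1 (log2) once values below 4 were set to 4, so no gene was looked for as alike by the rule used. Lbp, which spanned the most at 0.81, was taken up after its values were seen. The genes with the nearest profile over the 4 arrays, by Euclidean distance between values centred per gene, were Tmem176a (distance 0.07), Smad3 (0.08), a signal transducer of TGF-β, and Mettl6 (0.11), an RNA methyltransferase. Tmem176a was at 10.49, 11.20, 10.67 and 11.02 in the low-fat PBS, low-fat clodronate, high-fat PBS and high-fat clodronate pools. Another Tmem176a probe set had clodronate differences of 0.80 and 0.39, close to those of the one used (0.71 and 0.35), and the other one had 0.55 and 0.66. Another probe set of Mettl6 had -0.05 and -0.01, and another of Smad3 had 0.44 and -0.34, so that these likenesses held for single probe sets.

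The rest of the pathway was taken from 8 lists with 99 genes, of which 89 had a probe set with a single symbol and 52 reached 4 on at least 1 array. With clodronate 4 of the 52 fell and 0 rose (limma with Benjamini-Hochberg adjustment), 7.69% against 1.09% of all genes, and 1 fell without the mean-dependent prior. The 4 were Ly86, Itgb2, Clec7a and Pltp. Ly86 and Clec7a were at 4 or more with PBS alone, so they entered the fit through the arrays where they are high, and their fitted values below 4 are not measured levels. With values below 4 set to 4, 2 of the 52 fell, Ly86 and Itgb2, beside 0.624% of all genes that rose or fell. The median of the 52 was -0.01 for the low-fat diet and -0.17 for the high-fat diet, beside 0.04 and -0.05 for all genes.

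Among other receptors and surface partners, 2 of 3 measured genes fell. Ly86, which encodes the partner protein of the receptor CD180 and is the closest relative of Ly96 in the pathway, was at 6.44 and 3.67 with PBS and clodronate on the low-fat diet and at 5.96 and 3.89 on the high-fat diet. Ly86 was thus lower by at least 5.44-fold and 3.89-fold with clodronate. With values below 4 set to 4 its limma Benjamini-Hochberg adjusted p was 0.0035, but both clodronate values were then fixed at 4. The spread on that side was thus not measured. Itgb2, the shared beta chain of leukocyte integrins, was at 5.20 and 4.00, and at 5.13 and 4.01, 2.30-fold and 2.16-fold lower (limma, Benjamini-Hochberg adjusted p = 0.0307; 0.063 without the mean-dependent prior). The third, Cd36, a scavenger receptor and fatty acid carrier that partners with TLR2, had clodronate differences of -0.22 and 0.08. Tlr1, Tlr6, Tlr8, Tlr12, Tlr13, Cd180 and Itgam did not reach 4 on any array, and the highest value among them was 3.63. Whether Ly86 and Ly96 differ in response was not tested.

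The 7 genes listed for folding, transport and turnover of Toll-like receptors were all measured. For clodronate 0 of 7 passed (limma with Benjamini-Hochberg adjustment), with 0 at an unadjusted p under 0.05, against 1.09% of all genes that passed. Without the mean-dependent prior limma gave 0 by either count, against 0.451% of all genes that passed. Unc93b1, which escorts the nucleic acid receptors, had differences of -0.19 and -0.37, and Hsp90b1, the endoplasmic reticulum chaperone of most Toll-like receptors, -0.19 and -0.07. Cnpy3, a folding partner of Hsp90b1, had -0.10 and -0.27. The transcripts of this list were thus at 4 or more on all 4 arrays, in a tissue where the receptors themselves were not.

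Of 6 measured genes that bind or clear lipopolysaccharide and related products, 1 fell. Pltp, a plasma lipid transfer protein of the LPS-binding protein family, was at 11.39, 11.06, 10.88 and 10.44 in the low-fat PBS, low-fat clodronate, high-fat PBS and high-fat clodronate pools. It fell with clodronate by 0.39 ± 0.08 (SD, n = 2; limma, Benjamini-Hochberg adjusted p = 0.0418; 0.117 with values below 4 set to 4 and 0.85 without the mean-dependent prior), opposite in direction to Lbp. A second Pltp probe set had -0.26 and -0.30. Msr1, a macrophage scavenger receptor that takes up lipopolysaccharide, was 1.86-fold and 2.03-fold lower (limma, Benjamini-Hochberg adjusted p = 0.0729). Aoah, which inactivates lipopolysaccharide, was below 4 on all arrays.

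Signalling genes downstream of the receptors showed 0 of 13 adaptors and kinases, 0 of 7 transcription factors and 0 of 9 negative regulators called for clodronate (limma with Benjamini-Hochberg adjustment; 0, 0 and 0 at an unadjusted p under 0.05; without the mean-dependent prior 0 were called and 1, 1 and 0 had such a p). Over all genes 1.09% were called, and 0.451% without that prior. Ikbke, an interferon pathway kinase, was lower by 0.36 and 0.30 on the 2 diets, and Irf8, a macrophage transcription factor, by 0.51 and 0.28. Ticam1, which encodes the adaptor TRIF, had differences of -0.11 and -0.48. Of the 13 adaptors and kinases 8 were above 0 on the low-fat diet and 1 on the high-fat diet. Over all genes 59.7% and 36.4% were. Under quantile scaling 8 and 3 of the 13 were above 0, beside 4235 and 4408 of all 8650 genes. Of the sensors outside the Toll-like family 1 of 5 measured genes passed on the deposited values and 0 with values below 4 set to 4. The one was Clec7a, the beta-glucan receptor dectin-1 of myeloid cells, lower by at least 1.74-fold and 1.51-fold. Its limma adjusted p was 0.206 with values below 4 set to 4, and 0.00659 on the deposited values, which order the dim clodronate arrays.

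Cytokines that lipopolysaccharide induces were mostly dim. Of 14 genes 12 were below 4 on all arrays, including Tnf, Il6, Il1b and Ccl2. Cxcl1, a neutrophil chemokine, was at 6.79 and 7.27 with PBS and clodronate on the low-fat diet and at 7.52 and 8.36 on the high-fat diet. Its clodronate difference of 0.66 ± 0.25 (SD, n = 2) did not pass (limma, Benjamini-Hochberg adjusted p = 0.0895). Cxcl10, an interferon-induced chemokine, had differences of -0.74 and 0.08.

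**Figure D4:**
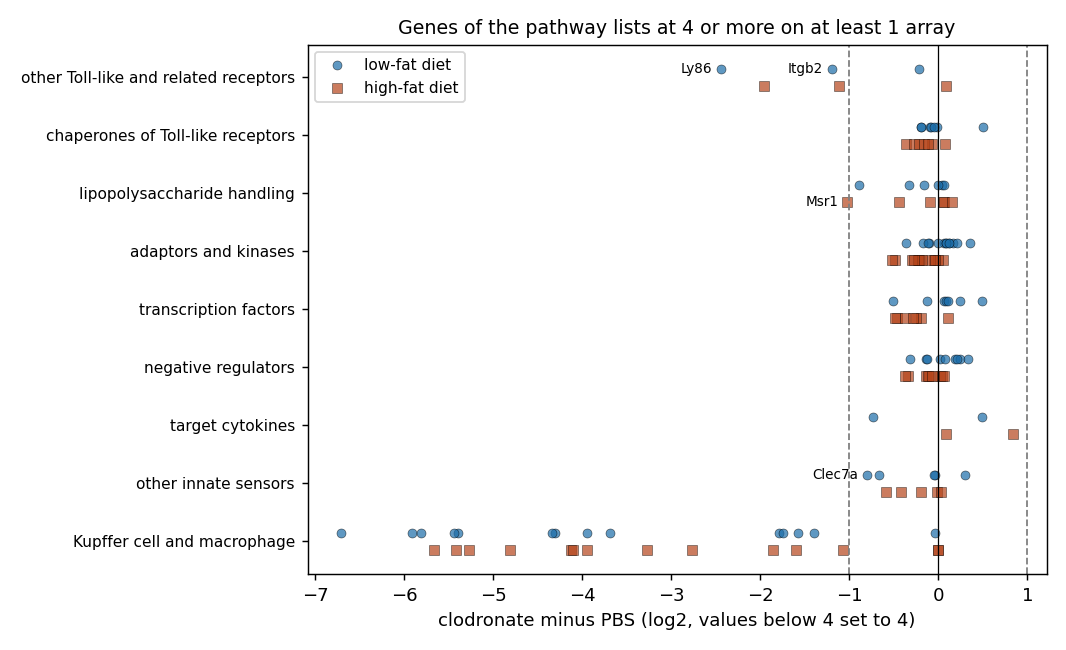
Clodronate minus PBS (log2, values below 4 set to 4) for each gene at 4 or more on at least 1 array, by list, on the low-fat (circles) and high-fat (squares) diets, with dashed lines at 2-fold. Ly86, Itgb2 and Msr1 lie apart to the left of their lists, the Kupffer cell and macrophage markers reach -6.71, and the signalling genes lie within 1 of 0.

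By diet, 5 of the 52 pathway genes passed (limma with Benjamini-Hochberg adjustment; 2 rose and 3 fell), 9.62% against 1.69% of all genes. Without the mean-dependent prior 0 passed in limma, with 9 at an unadjusted p under 0.05 in either fit. With values below 4 set to 4, Cd36 and Pltp passed, and Cxcl1, Tab2 and Dusp1 did not (limma adjusted p of 0.0713, 0.0707 and 0.0982). Cd36 rose on the high-fat diet by 0.88 ± 0.21 (SD, n = 2; limma, Benjamini-Hochberg adjusted p = 0.00244), and another of its probe sets was higher by 0.85 with PBS and 1.01 with clodronate. Cxcl1 rose by 0.91 ± 0.25 (SD, n = 2; limma, Benjamini-Hochberg adjusted p = 0.0141), and its other probe set was higher by 1.04 and 1.33. Pltp fell by 0.57 ± 0.08 (SD, n = 2; limma, Benjamini-Hochberg adjusted p = 0.005). Tab2, an adaptor of the kinase TAK1, fell by 0.50 ± 0.11 (SD, n = 2; limma, Benjamini-Hochberg adjusted p = 0.0253) and Dusp1, a phosphatase that limits MAP kinase signalling, by 0.47 ± 0.01 (SD, n = 2; limma, Benjamini-Hochberg adjusted p = 0.0443). Of the 13 adaptors and kinases 11 were lower on the high-fat diet with PBS and 13 with clodronate, and 11 and 12 under quantile scaling. Over all genes 4226 and 5615 of 8650 were lower, and 4441 and 4115 under quantile scaling.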

How the data were processed

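Liver RNA pools were hybridised to 4 single-colour Affymetrix arrays from 5 µg of total RNA, per the labels' protocols. The deposited values are log2 expression per probe set, and the submitters' processing notes name GCRMA 2.24.1 (as that tool works, background correction by probe sequence, normalization between arrays, summary into probe sets). No scanner files were used here. Genes were named through the platform annotation (34958 probe sets with 1 symbol, 932 with several, 9211 of the table not listed); all 9 members were found in the RefSeq gene table of GRCm38.p6, used for names only.

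Each gene was represented by its probe set with the highest mean. For pairs of arrays, values below 4 were set to 4, and 2-fold counted as different. Averaged effects were fitted with limma 3.58.1 (R 4.3.3; injection plus diet, mean-dependent prior, Benjamini-Hochberg at 0.05 over the 8650 genes that reached 4 on any array), with 1 residual degree of freedom, which also holds any diet dependence, and 8.46 prior degrees of freedom. The p-values rest on that residual and on a variance borrowed from other genes. No group had a repeat array, so they measure neither the spread between repeat arrays nor that between mice. The fit was also run on data simulated from its own fitted prior. Its assumptions held there by construction, so that run says nothing about the calls made here. Members, lists and settings were chosen with earlier results of these data known. Named pathway genes were, per list, up to 4 by clodronate and 2 by diet difference; others were named as called or for completeness, after their values were seen. Alternatives were the floor, fold, scaling, filter, prior and probe set choice. Python 3.11.15, numpy 2.4.6, pandas 2.3.3 and matplotlib 3.10.9 were used.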

Additional observations from a re-analysis of the deposited data

Results flagged for a closer look

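With 1 array per group, a gene is listed here when the same contrast ran in opposite directions on the 2 diets or under the 2 injections; none of these differences was tested. The diet difference of Lbp was 0.24 (log2) with PBS and -0.21 with clodronate. The clodronate difference of Ly96 was 0.0692 for the low-fat diet and -0.0135 for the high-fat diet (0.08 for the latter under quantile normalization), and the diet difference of Tlr3 was -0.044 with PBS and 0.0089 with clodronate, at the limit of measurement. Among the pathway genes with at least 0.2 on both sides, Cnpy4, a chaperone relative of Cnpy3, had clodronate differences of 0.50 for the low-fat diet and -0.22 for the high-fat diet, and diet differences of 0.37 with PBS and -0.36 with clodronate. Rela, the p65 subunit of NF-κB, had clodronate differences of 0.4891 and -0.4687 and diet differences of 0.2334 and -0.7244, in the same order. Pik3ap1, a signalling adaptor, had 0.3575 and -0.2729, and 0.2084 and -0.4220. Sigirr, an inhibitory receptor, had clodronate differences of 0.245 and -0.3391, and Nfkb2, another NF-κB subunit, diet differences of 0.2382 and -0.2019. Both contrasts use the same 4 arrays, so for a gene they are not independent. Over all genes 59.7% were above 0 for clodronate on the low-fat diet and 36.4% on the high-fat diet. For diet 49.5% were above 0 with PBS and 33.1% with clodronate. The pathway genes listed here all ran from above 0 to below 0, the direction of that shift. The share of all genes that reversed was not counted.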

How the results depend on the processing

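The call of Lbp for the averaged clodronate effect was lost, leaving 0 members called, without the mean-dependent prior (limma adjusted p = 0.772), with no filter on dim genes (0.247), with genes at 4 or more on all 4 arrays (0.112), with values below 4 set to 4 (0.186), under quantile normalization (0.0817), in the fit on all probe sets (0.3) and with the mean over bright probe sets (0.09). In all of these the size stayed between 0.58 and 0.59, and the cause of the lost call was not tested. With a fold threshold of 1.5 in place of 2, 1 member was called on the low-fat diet after clodronate (Lbp, 0.81). With no floor, 1 member was called on the high-fat diet (Cd14, -1.31), from 2 values below 4. The other 35 of 44 alternative counts of members equalled the main count. That count was 0 in all but the averaged clodronate fit, so most of these matches were 0 against 0 and say little. No paired analysis was possible because the labels give no replicate numbers and each group was a single array; the averaged fit itself takes clodronate minus PBS within each diet. No array could be left out of the averaged fit, which would then have no residual degree of freedom. The list counts with values below 4 set to 4, an alternative chosen after seeing the data, were 2 of 52 pathway genes for clodronate (4 as deposited) and 2 for diet (5 as deposited). Signal over background limits 6 of the 9 members, which were not measurable in whole liver.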
